A study of Homo sapiens with 12 samples.

Results

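The 10 genes described here are the 5 DNA-binding subunits of NF-κB (*NFKB1*, *NFKB2*, *REL*, *RELA* and *RELB*), 3 inhibitors of the pathway (*NFKBIA*, *NFKBIE* and *TNFAIP3*) and 2 of its survival targets (*BIRC3* and *TRAF1*). They were chosen by gene symbol, 10 of the 16052 genes listed in both deposited count tables, and all 10 passed the filter on low counts in each line. Total RNA was sequenced from 3 biological replicates of each of 4 populations of 2 established human neoplastic B-cell lines, MEC1 and JVM2. The question behind the design was what a raised level of UGT2B17, an enzyme that conjugates glucuronic acid to steroids and lipids, does to gene expression in such cells. MEC1-2B17 and JVM2-2B17 carried the *UGT2B17* coding sequence in pcDNA6 and were kept in blasticidin. JVM2-CTRL carried the empty pcDNA6 vector and was kept in blasticidin as well. MEC1-CTRL carried a stable shRNA knock-down of *UGT2B17* and was kept in puromycin. Construct and selection antibiotic thus differ between the arms of MEC1 beside *UGT2B17*, and each arm was 1 selected population. The replicates of an arm come from that population, so *P*-values measure the spread between its cultures and not between independent transfections.

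NF-κB transcription factors are dimers of Rel-family proteins. In the canonical arm, dimers of p50 (made from *NFKB1*) with RelA or c-Rel (*REL*) are held in the cytoplasm by IκB proteins until the IκB kinase complex marks these for degradation. In the noncanonical arm, NIK (*MAP3K14*) drives the processing of p100 (*NFKB2*) to p52, which pairs with RelB. Several inhibitors are themselves NF-κB targets, so that the pathway limits its own activity. In mature B cells it is engaged by the B-cell receptor, CD40 and BAFF, and c-Rel is prominent in lymphocytes.

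The promoters of these genes were searched for the κB consensus, the sequence that NF-κB dimers bind, because several subunits and inhibitors are known NF-κB targets themselves. RefSeq promoter windows (GRCh38.p14, 250 bases before to 50 after a transcription start) were at hand for 8 of the 10 genes, all but *RELB* and *NFKBIE*, and gave 14 windows. The κB consensus, searched by its name in its degenerate 10-base form on both strands, matched 7 of these 14 windows, against 2075 of 35116 windows of all genes (5.91%). Overlapping matches were counted apart, no other motif was searched, and a match describes the letters only. The genes were chosen as parts or targets of this pathway, and windows of the same gene are not independent. The shares are thus a description and not a test. One stretch of 30 bases for each of 6 genes is printed 5′ to 3′ on the strand of the gene, with the matched bases in capitals:
NFKB1 (plus strand, chr4:102501300-102501329): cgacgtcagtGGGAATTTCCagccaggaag
NFKB2 (plus strand, chr10:102394461-102394490): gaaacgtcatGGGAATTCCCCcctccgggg
REL (plus strand, chr2:60881517-60881546): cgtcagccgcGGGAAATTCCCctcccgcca
NFKBIA (minus strand, chr14:35404811-35404840): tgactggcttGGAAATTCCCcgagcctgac
TNFAIP3 (plus strand, chr6:137867188-137867217): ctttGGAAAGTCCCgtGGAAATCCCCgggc
BIRC3 (plus strand, chr11:102317275-102317304): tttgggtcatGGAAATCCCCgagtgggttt
The *NFKB1* match began 49 bases upstream of the start, the first of the 2 overlapping matches of *REL* 47 bases and that of *NFKBIA* 81 bases upstream. *TNFAIP3* held a pair of matches that did not overlap, beginning 67 and 55 bases upstream. *NFKB2* had 5 matches in 2 of its 3 windows, and *BIRC3* 2 matches in its single window. None of the 3 windows of *TRAF1* and neither of the 2 windows of *RELA* held a match, which says only that these letters are not in those windows.

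The libraries of MEC1 held 31762649 to 37744991 counts and those of JVM2 8809179 to 11231330, so values in JVM2 rest on fewer reads and have wider errors. *UGT2B17* rose in both lines. Its level in CPM (read counts scaled to the size of the library) was 10.99 ± 0.69 in MEC1-CTRL and 21.1 ± 1.37 in MEC1-2B17 (mean ± SD, n = 3), and 27.8 ± 1.83 in JVM2-CTRL and 38.7 ± 5.67 in JVM2-2B17. All 8 B-cell markers examined (such as *MS4A1* and *CD79A*) were above 1 CPM in every group, with summed levels of 3296 to 4188 CPM. Of 5 T-cell markers 4 were listed in MEC1, where they summed to at most 0.64 CPM, and 0 in JVM2. Of 4 monocyte and macrophage markers 3 were listed in MEC1 and 2 in JVM2, and they summed to at most 1.70 CPM. In MEC1 the summed B-cell markers were 3646 to 3744 CPM in CTRL and 3296 to 3479 CPM in 2B17 libraries, and 4 epithelial markers summed to 26.3 to 30.1 CPM and 45.5 to 48.7 CPM. The 2 NK-cell markers listed, of 3 examined, summed to 4.81 to 5.67 CPM in MEC1-CTRL and 3.44 to 3.72 CPM in MEC1-2B17. In JVM2 3 fibroblast markers, of which 2 were listed, summed to 16.4 to 19.4 CPM in CTRL and 23.7 to 28.9 CPM in 2B17 libraries. The part of these markers in the results was not tested. Replicates of an arm differed by a mean chi-square per gene of 2.14 to 7.89. Replicate 2 of JVM2-2B17 stood apart from the other libraries of its group, at 7.70 and 7.89 against 2.14 between the other pair, and replicate 3 of MEC1-CTRL likewise, at 6.11 and 7.56 against 2.34. For the 10 genes, test results that change without either library are marked as such where they are given. The further genes named below were not examined one by one without these libraries.

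In MEC1, 8 of the 10 genes changed with UGT2B17, 3 higher and 5 lower, and in JVM2 4 of 10 changed, 2 higher and 2 lower (edgeR quasi-likelihood test, adjusted *P* below 0.05 over all genes tested). Changes were common across the transcriptome, and 41.7% of 16581 genes tested in MEC1 and 29.3% of 13021 in JVM2 passed the same threshold. These shares were not matched for level. They include genes near the limit of the count filter, while the group means of the 10 genes were 28.4 to 307 CPM. In MEC1 20.0% of all genes were higher and 21.6% lower, and in JVM2 14.1% and 15.3%. The libraries of the arms did not overlap for 7 of the 10 genes in each line, at a background of 50.1% of genes in MEC1 and 45.2% in JVM2. *REL* and *TRAF1* were lower and *BIRC3* was higher in both lines, and *NFKBIE* was lower in MEC1 and higher in JVM2. A change in both lines in the same direction was seen for 8.37% of the 12243 genes tested in both, and one in opposite directions for 7.43%. None of the 10 changed by more than 2-fold in either line. Over all genes 5.30% in MEC1 and 6.23% in JVM2 did, and at such shares none among 10 genes is not a departure. The median log2 fold change of the 10 genes was -0.075 in MEC1 and -0.081 in JVM2, beside 0.0026 and 0.00012 for all genes. Bulk RNA cannot tell fewer cells of a kind from less RNA per cell.

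**Figure D1:**
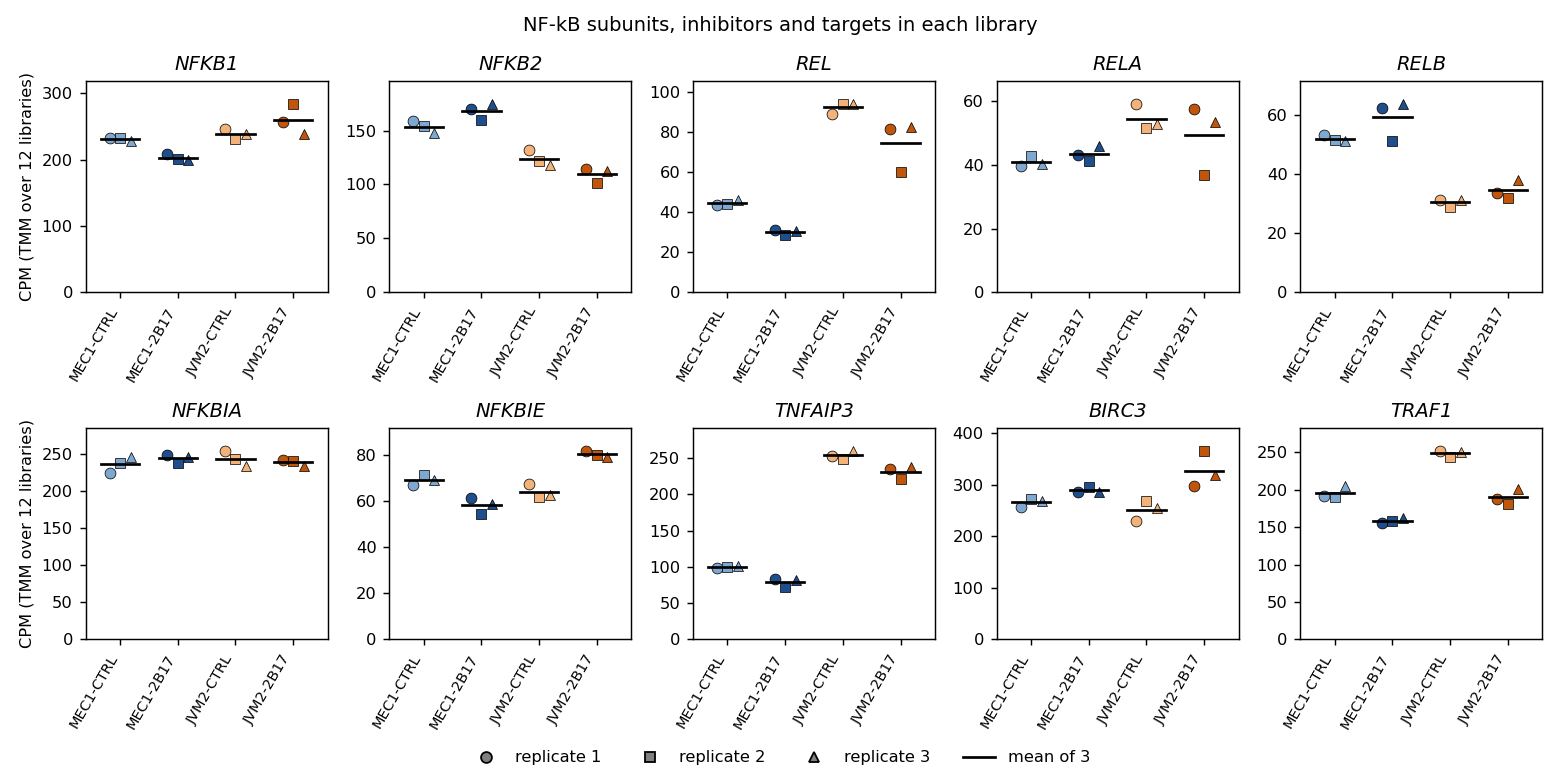
Level of each gene in each of the 12 libraries, in CPM with TMM scaling over all 12 (vertical axes start at 0), by group on the horizontal axis, with the replicate shown by the marker and the mean of 3 as a black line. *REL* and *TNFAIP3* lay lower in all MEC1 libraries than in any JVM2 library, and replicate 2 of JVM2-2B17 (dark orange square) lay apart for *REL*, *RELA* and *BIRC3*.

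Among the DNA-binding subunits, *REL* fell the furthest. *REL* (ENSG00000162924, chr2:60881491-60931612) encodes c-Rel. In MEC1 it was at 45.9, 46.8 and 48.9 CPM in replicates 1 to 3 of CTRL and at 33.1, 30.1 and 32.0 CPM in those of 2B17, values scaled within the line. All 2B17 libraries were below all CTRL libraries. *REL* fell by 32.8%, or -0.57 ± 0.049 on the log2 scale (± SE, adjusted *P* = 1.87e-08). None of the 20 tested genes nearest to *REL* in MEC1 had a lower fold change, and their median was 0.011. In JVM2 4 of the 20 had a lower one, with a median of 0.039. In JVM2 *REL* was at 83.5, 88.2 and 88.3 CPM in CTRL and at 76.4, 55.8 and 78.0 CPM in 2B17. The arms did not overlap here either, but replicate 2 of JVM2-2B17 lay well below the other libraries. The log2 fold change was -0.30 ± 0.10 (adjusted *P* = 0.0424). Without replicate 2 of JVM2-2B17 it was -0.17 (adjusted *P* = 0.0205), and the call was lost when replicate 1, 2 or 3 of JVM2-CTRL was left out (adjusted *P* = 0.0776, 0.125 and 0.132). Over all alternatives its adjusted *P* ranged from 0.00821 to 0.132.

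*NFKB1* (ENSG00000109320, chr4:102501330-102617302), the source of p50, was lower in MEC1-2B17. It was at 245, 246 and 241 CPM in MEC1-CTRL and at 219, 211 and 209.7 CPM in MEC1-2B17, and the arms did not overlap. The log2 fold change was -0.19 ± 0.035 (adjusted *P* = 1.50e-04). In JVM2 it was at 230.3, 217 and 224 CPM in CTRL and at 241, 265 and 225 CPM in 2B17, with overlapping arms and a log2 fold change of 0.12 ± 0.066 (adjusted *P* = 0.184), which was 0.062 without replicate 2 of JVM2-2B17.

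Both genes of the noncanonical dimer were higher in MEC1-2B17 by small margins. *NFKB2* (ENSG00000077150, chr10:102394110-102402524), the source of p52, was at 167, 162 and 156 CPM in MEC1-CTRL and at 179, 168 and 184 CPM in MEC1-2B17. These arms came close without overlapping (log2 fold change 0.13 ± 0.040, adjusted *P* = 0.0154). The call was lost without replicate 3 of MEC1-2B17 (adjusted *P* = 0.0622) and in the fit of all 12 libraries (0.0700). Over all alternatives the adjusted *P* ranged from 0.00172 to 0.0700. In JVM2 *NFKB2* was at 123, 114 and 111 CPM in CTRL and at 107, 94.2 and 106 CPM in 2B17. The 2B17 libraries were all below the CTRL libraries, but the log2 fold change of -0.18 ± 0.069 missed the threshold (adjusted *P* = 0.0745). It passed with a replicate block (adjusted *P* = 0.0445) and in the fit of all 12 libraries (0.0336), was -0.12 without replicate 2 of JVM2-2B17, and over all alternatives had an adjusted *P* of 0.0336 to 0.251.

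*RELB* (ENSG00000104856, chr19:45001461-45038192), the partner of p52, was at 55.8, 54.2 and 54.0 CPM in MEC1-CTRL and at 65.5, 53.8 and 66.9 CPM in MEC1-2B17. Replicate 2 of MEC1-2B17 lay below all 3 CTRL libraries, so the arms overlapped although the test passed (log2 fold change 0.18 ± 0.061, adjusted *P* = 0.0221). Without that library the log2 fold change was 0.28 (adjusted *P* = 4.66e-05). The call was lost without replicate 2 or 3 of MEC1-CTRL (adjusted *P* = 0.0605 and 0.0522) and without replicate 1 or 3 of MEC1-2B17 (0.098 and 0.139), and over all alternatives the adjusted *P* ranged from 4.66e-05 to 0.139. In JVM2 *RELB* was at 29.2, 27.1 and 29.1 CPM in CTRL and at 31.5, 29.6 and 35.9 CPM in 2B17. The 2B17 libraries were all higher, with a log2 fold change of 0.18 ± 0.090 that did not pass (adjusted *P* = 0.148). It passed without replicate 2 of JVM2-2B17 (0.24, adjusted *P* = 0.0323), in a range of 0.0323 to 0.428 over all alternatives.

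*RELA* (ENSG00000173039, chr11:65653599-65663090), the main transactivating partner of p50, passed in neither line. In MEC1 it was at 41.6, 45.1 and 42.4 CPM in CTRL and at 45.3, 43.3 and 48.3 CPM in 2B17 (log2 fold change 0.084 ± 0.050, adjusted *P* = 0.197). In JVM2 it was at 55.3, 48.3 and 49.6 CPM in CTRL and at 54.0, 34.3 and 50.3 CPM in 2B17, where 2 of 3 libraries lay within the CTRL range and replicate 2 far below it. The log2 fold change was -0.14 ± 0.13 (adjusted *P* = 0.474) and turned to 0.036 without that replicate.

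**Figure D2:**
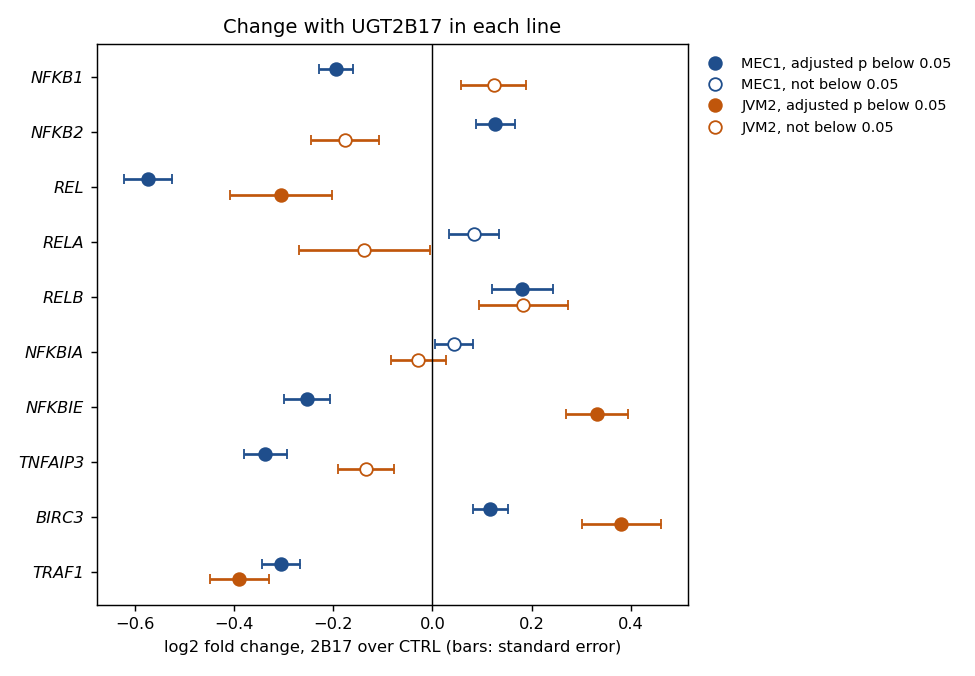
Log2 fold change of 2B17 over CTRL (horizontal axis) for each gene in MEC1 (blue) and JVM2 (orange), with standard errors as bars. Filled points passed the adjusted *P* threshold of 0.05, and *NFKBIE* is the gene with filled points on opposite sides of 0.

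Among the inhibitors, *NFKBIE* moved in opposite directions in the 2 lines. *NFKBIE* (ENSG00000146232, chr6:44258166-44265788) encodes IκBε, which retains RelA and c-Rel dimers in the cytoplasm. It was at 70.3, 75.1 and 73.2 CPM in MEC1-CTRL and at 64.7, 56.9 and 61.7 CPM in MEC1-2B17. All 2B17 libraries were lower (log2 fold change -0.25 ± 0.046, adjusted *P* = 2.02e-04). In JVM2 it was at 62.9, 58.0 and 58.4 CPM in CTRL and at 76.6, 74.3 and 74.7 CPM in 2B17. There all 2B17 libraries were higher and lay close together, including replicate 2 (log2 fold change 0.33 ± 0.062, adjusted *P* = 0.00164).

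*TNFAIP3* (ENSG00000118503, chr6:137867214-137883314) encodes A20, the ubiquitin-editing enzyme that shuts off signaling upstream of the IκB kinase. In MEC1 it was at 104, 105 and 107 CPM in CTRL and at 87.8, 76.4 and 85.5 CPM in 2B17. The arms did not overlap, and *TNFAIP3* fell by 20.8% (log2 fold change -0.34 ± 0.043, adjusted *P* = 4.03e-06). In JVM2 it was at 236, 234 and 244 CPM in CTRL and at 221, 206 and 224 CPM in 2B17. The 2B17 libraries were again all below the CTRL libraries, with a smaller log2 fold change of -0.13 ± 0.056 that missed the threshold (adjusted *P* = 0.0954). A gene on the opposite strand, *WAKMAR2*, overlaps 1.47% of the exonic bases of *TNFAIP3* and had 579 counts over the MEC1 libraries against 19276 for *TNFAIP3*.

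*NFKBIA* (ENSG00000100906, chr14:35401079-35404749) encodes IκBα, the prototype inhibitor that NF-κB induces within minutes of activation. It was at 236, 251 and 259 CPM in MEC1-CTRL and at 261, 249 and 258 CPM in MEC1-2B17. In JVM2 it was at 237, 227 and 219 CPM in CTRL and at 227, 223 and 220 CPM in 2B17. The arms overlapped in both lines. The log2 fold change was 0.044 ± 0.039 in MEC1 (adjusted *P* = 0.399), and in JVM2 it was -0.028 ± 0.055 (0.745). Without replicate 3 of MEC1-CTRL the MEC1 value was 0.073.

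The 2 survival targets passed the test in both lines, in opposite directions to each other. *BIRC3* (ENSG00000023445, chr11:102317484-102339403) encodes cIAP2, a ubiquitin ligase that blocks apoptosis downstream of TNF receptors and, with TRAF3 and TRAF2, keeps NIK low. In MEC1 it was at 269.8, 286 and 284 CPM in CTRL and at 301, 310.2 and 300.1 CPM in 2B17. All 2B17 libraries were higher, by a small margin (log2 fold change 0.12 ± 0.036, adjusted *P* = 0.0124). This call was lost without replicate 1 of MEC1-CTRL (adjusted *P* = 0.0744), with edgeR's exact test (0.0501) and in the fit of all 12 libraries (0.151), in a range of 0.00554 to 0.151. In JVM2 *BIRC3* was at 215, 252 and 239 CPM in CTRL and at 279, 340.5 and 301 CPM in 2B17. It rose by 30.3% there, with arms that did not overlap (log2 fold change 0.38 ± 0.080, adjusted *P* = 0.00340). Its log2 fold change stayed between 0.30 and 0.45 over all alternatives, leaving out its highest library (replicate 2 of JVM2-2B17) included. Of the 20 tested genes nearest to *BIRC3*, 15 had a lower fold change than *BIRC3* in MEC1 and 18 in JVM2. In the same count *NFKBIE*, which was lower in MEC1 and higher in JVM2, had 4 and 15 of its 20 neighbors below it, and *TNFAIP3* had 6 in each line. *NFKB1* had 3 and 9, *NFKB2* 14 and 5, *RELA* 16 and 8, *RELB* 12 and 12, and *NFKBIA* 9 and 11.

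*TRAF1* (ENSG00000056558, chr9:120902393-120929173) encodes an adaptor that binds TRAF2 and the cIAP proteins and is induced by CD40 signaling. It was at 201, 200.3 and 217 CPM in MEC1-CTRL and at 164, 166 and 170.5 CPM in MEC1-2B17. In JVM2 it was at 235, 229 and 234 CPM in CTRL and at 176, 168 and 189 CPM in 2B17. The arms did not overlap in either line. *TRAF1* changed by -0.30 ± 0.039 on the log2 scale in MEC1 (adjusted *P* = 3.57e-06), and the JVM2 value was -0.39 ± 0.060 (adjusted *P* = 3.71e-04). Both calls held under every alternative tried.

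*TRAF1* lies on the long arm of chromosome 9, where most tested genes were lower in MEC1-2B17. Of 470 other tested genes from 60 Mb to the end of the chromosome, 336 were lower (71.5%) and 14 higher, with a median log2 fold change of -0.39. Before 60 Mb 37 of 163 genes were lower with a median of -0.030, and over all other chromosomes 20.1% of genes were lower with a median of 0.0095. Of the 20 tested genes nearest to *TRAF1* in MEC1, 18 were lower, their median was -0.46, and 14 had a lower fold change than *TRAF1* itself. The fall of *TRAF1* in MEC1 was thus within that of its neighbors, 0.16 above their median on the log2 scale. In JVM2 the median of 359 genes of the same arm was 0.0049 and that of the 20 nearest genes -0.0030. None of those 20 had a fold change as low as that of *TRAF1*, which stood at -0.39 relative to their median. *TRAF2* (the adaptor that TRAF1 pairs with), also on this arm and named after its values were seen, was lower in MEC1 (log2 fold change -0.41 ± 0.042, adjusted *P* = 2.04e-07) and was at 27.3 ± 2.77 and 28.3 ± 1.61 CPM in JVM2-CTRL and JVM2-2B17 (log2 fold change 0.054 ± 0.095, adjusted *P* = 0.711). The share of the MEC1 value of *TRAF1* that belongs to its arm of the chromosome was not tested.

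**Figure D3:**
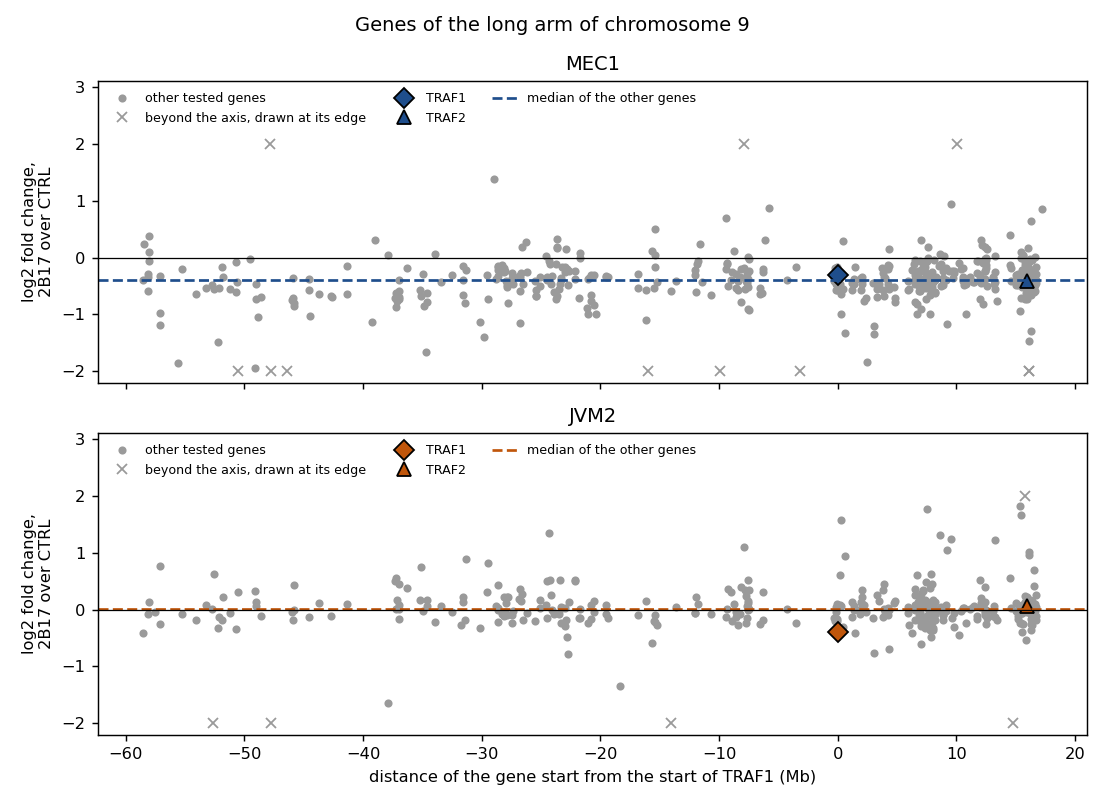
Log2 fold change of 2B17 over CTRL (vertical axes) for the tested genes of chromosome 9 from 60 Mb on, against the distance of their start from that of *TRAF1* in Mb, in MEC1 (top) and JVM2 (bottom). The dashed line is the median of the genes other than *TRAF1*, -0.39 in MEC1 and 0.0049 in JVM2, and *TRAF1* (diamond) is at -0.30 and -0.39.

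A fit of all 12 libraries with an interaction term asked whether the change from CTRL to 2B17 differed between the lines, on the same libraries as the comparisons above. The arms of MEC1 also differ in construct and antibiotic, while both arms of JVM2 carry pcDNA6 and were kept in blasticidin. A difference of line cannot be told apart from these, or from the 1 selected population of each arm. The change differed for 5 of the 10 genes, at a background of 32.0% of 15130 genes (15.3% with a higher and 16.7% with a lower response in MEC1). *NFKBIE* differed the most, its log2 fold change in MEC1 minus that in JVM2 being -0.58 ± 0.078 (adjusted *P* = 7.34e-06). The log2 fold change of *NFKB1* was lower in MEC1, with a difference of -0.31 ± 0.078 (adjusted *P* = 0.00368). That of *NFKB2* was higher, with a difference of 0.31 ± 0.082 (adjusted *P* = 0.00673). These 3 differences held under every alternative. Those of *BIRC3* (-0.26 ± 0.092, adjusted *P* = 0.0352) and *TNFAIP3* (-0.20 ± 0.075, adjusted *P* = 0.0496) were close to the threshold. The call of *TNFAIP3* was lost when any 1 of 10 of the 12 libraries was left out, all but replicate 1 of MEC1-2B17 and replicate 2 of JVM2-2B17, with adjusted *P* up to 0.143. That of *BIRC3* was lost for 7 of the 12 libraries, namely replicates 2 and 3 of MEC1-CTRL, 1 and 3 of MEC1-2B17, 1 and 3 of JVM2-CTRL and 2 of JVM2-2B17, with adjusted *P* up to 0.108. Without replicate 2 of JVM2-2B17 the *BIRC3* difference was -0.17.

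The fall of *REL* was not shown to differ between the lines with all libraries (difference -0.27 ± 0.11, adjusted *P* = 0.0800). It differed without replicate 2 of JVM2-2B17 (-0.40, adjusted *P* = 8.99e-05), and over all alternatives the adjusted *P* ranged from 8.99e-05 to 0.211. For *TRAF1* the difference was 0.089 ± 0.071 (adjusted *P* = 0.371), for *RELB* 0.0028 ± 0.12 (0.990), for *RELA* 0.22 ± 0.14 (0.243) and for *NFKBIA* 0.077 ± 0.069 (0.430). Without replicate 2 of JVM2-2B17 the difference was 0.058 for *RELA* and 0.056 for *TRAF1*, and without replicate 1 of that group it was 0.35 for *RELA*. With JVM2-2B17 replicate 2 and MEC1-CTRL replicate 3 both left out, a choice made after their distance was seen, 5 genes again differed, with *REL* passing (-0.37) and *BIRC3* not (-0.17).

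The level of each gene was also compared between the lines within each arm. Line cannot be told apart there from the selected populations and the sequencing depth, and the sequencing site of each sample is not named. Between the CTRL groups construct and antibiotic differ as well. Between MEC1-CTRL and JVM2-CTRL 6 of the 10 genes differed, 2 higher and 4 lower in MEC1, at a background of 78.3% of 15130 genes (39.6% higher and 38.7% lower). Between MEC1-2B17 and JVM2-2B17, which share no library with the former, 8 of 10 differed, 2 higher and 6 lower, at a background of 77.1% (38.9% higher and 38.2% lower). The libraries of the lines did not overlap for 6 of the 10 genes in the CTRL comparison (81.8% of all genes) and for 8 in the 2B17 comparison (77.8%). *NFKB2*, *REL*, *RELB*, *TNFAIP3* and *TRAF1* differed in the same direction in both arms, as did 64.2% of all genes. With library sizes alone in place of TMM the median of all genes moved from 0.037 to 0.20 in the CTRL comparison and from 0.036 to 0.20 in the 2B17 comparison, so values under about 0.2 depend on the scaling.

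*TNFAIP3* and *REL* differed by over 2-fold in both comparisons, as did 33.9% of all genes between the CTRL groups and 33.6% between the 2B17 groups. *TNFAIP3* was at 98.6, 99.7 and 101 CPM in MEC1-CTRL and at 253, 249 and 260.3 CPM in JVM2-CTRL on the scale of all 12 libraries. It was thus 2.55-fold higher in JVM2 (log2 difference MEC1 minus JVM2 -1.35 ± 0.054, adjusted *P* = 2.91e-15), and 2.92-fold higher between the 2B17 groups (-1.55 ± 0.055, adjusted *P* = 3.34e-16). *REL* was at 43.7, 44.4 and 46.3 CPM in MEC1-CTRL and at 89.4, 94.0 and 94.3 CPM in JVM2-CTRL. It was 2.07-fold higher in JVM2-CTRL (-1.05 ± 0.078, adjusted *P* = 1.17e-10) and 2.48-fold higher in JVM2-2B17 (-1.31 ± 0.083, adjusted *P* = 6.89e-12).

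The subunits of the noncanonical dimer were higher in MEC1. *RELB* was at 51.9 ± 1.03 CPM in MEC1-CTRL and 30.4 ± 1.35 CPM in JVM2-CTRL (mean ± SD, n = 3), a log2 difference of 0.77 ± 0.083 (SE, adjusted *P* = 3.27e-08), and the difference was 0.78 ± 0.081 between the 2B17 groups. *NFKB2* was at 154 ± 5.34 and 124 ± 6.87 CPM (0.31 ± 0.058, adjusted *P* = 5.76e-05), with a difference of 0.62 ± 0.059 between the 2B17 groups (adjusted *P* = 5.12e-09). *RELA* was lower in MEC1-CTRL (40.8 ± 1.68 against 54.5 ± 4.09 CPM, -0.42 ± 0.098, adjusted *P* = 6.94e-04). Between the 2B17 groups *RELA* did not pass (-0.19 ± 0.10, adjusted *P* = 0.0854), but it did without replicate 2 of JVM2-2B17 (-0.35, adjusted *P* = 3.69e-05), in a range of 3.67e-05 to 0.778.

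*TRAF1* was lower in MEC1 in both comparisons, with log2 differences of -0.35 ± 0.050 (adjusted *P* = 2.43e-06) and -0.26 ± 0.051 (adjusted *P* = 1.08e-04), the latter lost with library sizes alone (0.0843, in a range of 1.46e-07 to 0.0843). *NFKB1*, *NFKBIA*, *NFKBIE* and *BIRC3* did not pass between the CTRL groups. Their log2 differences were -0.044 ± 0.055, -0.046 ± 0.049, 0.12 ± 0.055 and 0.081 ± 0.065, and those of *NFKB1* and *NFKBIA* turned positive with library sizes alone and with at least 10 counts required in every library. Without replicate 3 of MEC1-CTRL that of *NFKB1* was -0.027. The difference of *NFKBIE* (adjusted *P* = 0.0627) was close to the threshold and passed in 11 of 20 alternatives, among them the 6 CTRL libraries alone (0.0273) and without replicate 2 of JVM2-2B17 (0.0303), with a range of 1.05e-04 to 0.157. With library sizes alone *BIRC3* (0.00283, in a range to 0.672) and *NFKBIA* (0.0289) passed as well, and *BIRC3* also with at least 10 counts in every library (0.0365). Between the 2B17 groups *NFKBIE* (-0.47 ± 0.055, adjusted *P* = 1.45e-07) and *NFKB1* (-0.36 ± 0.055, adjusted *P* = 5.49e-06) were lower in MEC1. *BIRC3* passed there too (-0.18 ± 0.065, adjusted *P* = 0.0168). This call was lost without replicate 1 or 3 of MEC1-2B17 (0.0643 and 0.0561) or replicate 2 of JVM2-2B17 (-0.083, adjusted *P* = 0.160). It was also lost with library sizes alone (-0.019, adjusted *P* = 0.802) and with at least 10 counts in every library (0.125). The same held in the 10 libraries left without the pair that stood apart (0.119). Over all alternatives the adjusted *P* ranged from 0.00171 to 0.802.

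**Figure D4:**
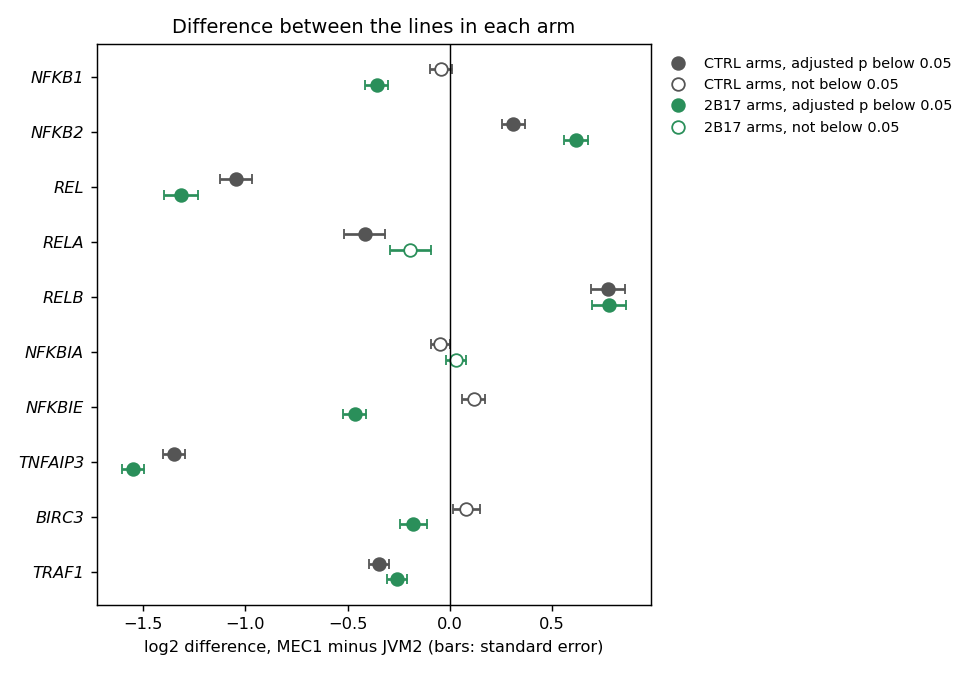
Log2 difference between the lines (horizontal axis, MEC1 minus JVM2, TMM scaling) for each gene in the CTRL (grey) and 2B17 (green) arms, with standard errors as bars and filled points below an adjusted *P* of 0.05. *TNFAIP3* and *REL* lie beyond -1 in both arms, and *NFKBIE* changes sides.

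Compared per kilobase of exon, on the scale of all 12 libraries, *NFKBIA* had the highest level and *REL* the lowest in all 4 groups. *NFKBIA* was at 69.4 ± 3.06 CPM per kb in MEC1-CTRL and 71.7 ± 2.95 in JVM2-CTRL (mean ± SD, n = 3). *REL* was at 2.62 ± 0.078 and 5.40 ± 0.16 CPM per kb, although 33.3% of its exonic bases are shared with an annotated noncoding gene of the same strand that the tables do not list, so its level per length is uncertain. *TRAF1* came next to *NFKBIA* in both CTRL groups, at 43.7 ± 1.92 and 55.5 ± 0.94 CPM per kb. In both 2B17 groups *BIRC3* was in that place, at 38.6 ± 0.75 CPM per kb in MEC1-2B17 and 43.7 ± 4.68 in JVM2-2B17, where its libraries overlapped those of *TRAF1* (42.4 ± 2.25). *TNFAIP3* ranked seventh in MEC1-CTRL (15.5 ± 0.19) and the third in JVM2-CTRL (39.5 ± 0.86). Neighbors in the order that overlapped were *NFKB2* with *NFKBIE* in MEC1-CTRL, *NFKBIE* with *RELB* and *NFKB1* with *TNFAIP3* in MEC1-2B17, *RELB* with *RELA* in JVM2-CTRL, and *NFKB2* with *NFKB1* in JVM2-2B17.

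Of 76 further genes of the pathway, 75 were tested in MEC1 and 44 changed, 22 in each direction, and 73 were tested in JVM2 and 28 changed, 11 higher and 17 lower. These are 58.7% and 38.4% of those tested, beside 41.7% and 29.3% of all genes. Their median log2 fold changes were -0.018 and -0.034. Among the 73 tested in both lines 7 changed in the same direction and 12 in opposite directions, where 8.37% and 7.43% of all genes tested in both did so. The list was drawn up with earlier results of these data known.

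Among 24 kinases and adaptors 4 were higher and 8 lower in MEC1, and 3 were higher and 3 lower in JVM2. The shares of all genes to set beside this and the next lists are 20.0% higher and 21.6% lower in MEC1, and 14.1% and 15.3% in JVM2. *TRADD*, the adaptor of TNF receptor 1, rose in MEC1 from 20.6 to 31.6 CPM (log2 fold change 0.62 ± 0.060, adjusted *P* = 1.19e-07). *MAP3K14*, which encodes NIK, rose in MEC1 from 38.3 to 51.0 CPM (0.41 ± 0.045, adjusted *P* = 4.71e-07) and was at 43.2 and 38.2 CPM in JVM2 (-0.18 ± 0.078, adjusted *P* = 0.114).

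In JVM2 the adaptor *TRAF5* rose from 19.9 to 30.1 CPM (0.59 ± 0.085, adjusted *P* = 2.36e-04). *MYD88*, the adaptor of Toll-like receptors, fell in both lines (-0.35 ± 0.091 in JVM2 and -0.19 ± 0.058 in MEC1), as did *IRAK1*, the kinase it recruits (-0.20 ± 0.057 and -0.14 ± 0.041). *IKBKG*, the regulatory subunit of the IκB kinase, which shares reads with a near-identical pseudogene and is therefore uncertain, was lower in JVM2 (-0.38 ± 0.13, adjusted *P* = 0.0409). *IKBKB*, the catalytic subunit of the canonical arm, named after its values were seen, was lower in MEC1 (-0.17 ± 0.043, adjusted *P* = 0.00321) and higher in JVM2 (0.26 ± 0.070, adjusted *P* = 0.0143). Of the linear ubiquitin complex, *RNF31* (its catalytic subunit HOIP) was higher in MEC1 (0.18 ± 0.048, adjusted *P* = 0.00645) and lower in JVM2 (-0.29 ± 0.071, adjusted *P* = 0.00916), and *SHARPIN* was higher in MEC1 (0.17 ± 0.049).

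Among 5 other IκB-like genes *NFKBIZ*, whose nuclear product acts with p50 on a subset of targets, rose in MEC1 from 39.4 to 51.1 CPM (0.38 ± 0.048, adjusted *P* = 3.44e-06) and fell in JVM2 from 65.2 to 33.6 CPM (-0.96 ± 0.073, adjusted *P* = 1.01e-06). *NFKBID* fell in JVM2 (-0.61 ± 0.14, adjusted *P* = 0.00671). Of 14 other negative regulators, 6 were lower and 1 higher in MEC1, such as *TRAF3IP3* (-0.46 ± 0.038), *PDLIM2* (-0.39 ± 0.083) and the deubiquitinase *OTUD7B* (-0.32 ± 0.043). In JVM2 13 of them were tested, 1 was lower, the ribonuclease *ZC3H12A* (-0.62 ± 0.083), and 3 were higher, among them *TNFAIP8L2* (0.41 ± 0.14) and *COMMD1* (0.25 ± 0.076).

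Among 30 other targets, 14 of 29 tested were higher and 8 lower in MEC1, and 5 of 28 were higher and 10 lower in JVM2, beside the same 20.0% and 21.6%, and 14.1% and 15.3%, of all genes. *TNFAIP2* and the cyclin gene *CCND2* fell in MEC1 by over 2-fold (-1.28 ± 0.098 and -1.24 ± 0.063) and by less in JVM2 (-0.34 ± 0.081 and -0.31 ± 0.065). The chemokine gene *CCL17* rose in MEC1 from 1.28 to 2.67 CPM (1.05 ± 0.16, adjusted *P* = 3.44e-05). *IRF4*, a master regulator of late B-cell differentiation and the most abundant of these, was named after its values were seen and rose from 1178 ± 14.3 to 2401 ± 43.3 CPM in MEC1 (1.03 ± 0.026, adjusted *P* = 1.24e-15), and was at 1947 and 2022 CPM in JVM2 (0.054 ± 0.050, adjusted *P* = 0.453).

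In JVM2 the genes of the lymphotoxin chains moved apart. *LTB* rose from 1.3 to 5.24 CPM (1.99 ± 0.26, adjusted *P* = 1.16e-04), a value that rests on few counts in JVM2-CTRL. *LTA* fell from 71.5 to 43.1 CPM (-0.73 ± 0.12, adjusted *P* = 5.82e-04). Both *LTB* and *LTA* were higher in MEC1-2B17 (0.32 ± 0.056 and 0.42 ± 0.048). The chemokine gene *CCL22* fell in JVM2 from 78.0 to 36.7 CPM (-1.08 ± 0.20, adjusted *P* = 0.00138) and was at 48.6 and 48.5 CPM in MEC1. The surface adhesion gene *ICAM1*, named after its values were seen, was higher in MEC1 (0.37 ± 0.039) and lower in JVM2 (-0.31 ± 0.099, adjusted *P* = 0.0340).

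**Figure D5:**
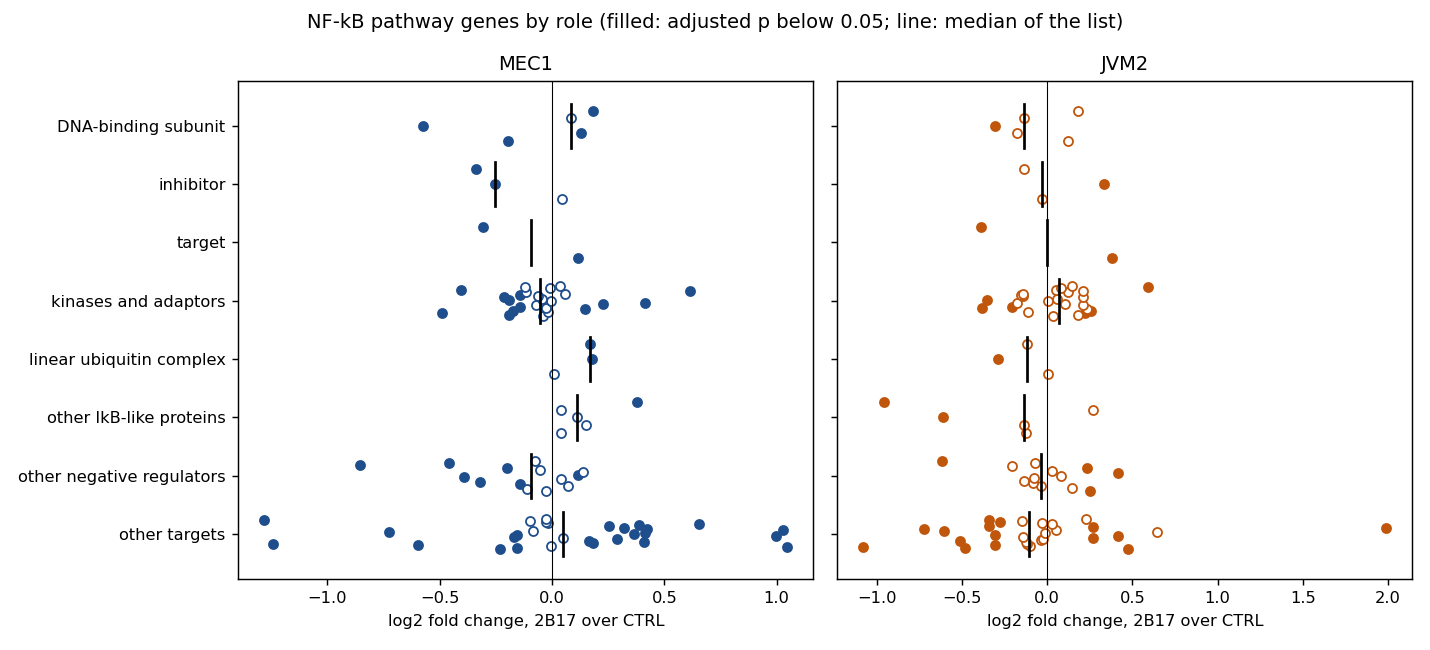
Log2 fold change of 2B17 over CTRL (horizontal axes) for the 10 genes (top 3 rows) and the 76 further pathway genes (lower 5 rows) by role in MEC1 (left) and JVM2 (right), 1 point for each tested gene, filled below an adjusted *P* of 0.05, with the median of each list as a black line. Filled points lie on both sides of 0 among the other targets in each line.

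Between the CTRL groups 70 of 75 further pathway genes differed, 25 higher and 45 lower in MEC1, beside 78.3% of all genes (39.6% higher and 38.7% lower), with a median log2 difference of -0.34 beside 0.037 for all genes. *PRKCB*, a protein kinase C that acts after B-cell receptor engagement, was lower in MEC1 (-1.84 ± 0.044), and *IRAK1* was higher in MEC1 (1.34 ± 0.051). *RNF31* (-0.66 ± 0.059), *RBCK1* (-0.45 ± 0.046), *BCL3* (-1.51 ± 0.15) and *NFKBIZ* (-0.90 ± 0.058) were lower in MEC1. Among the negative regulators *PDLIM2* was higher (3.97 ± 0.22) and *TNIP3* lower in MEC1 (-3.85 ± 0.097). Among the targets *FSCN1* was lower (-4.88 ± 0.093) and *LTB* higher (4.74 ± 0.16). The values of *PDLIM2* and *LTB* rest on few counts in JVM2-CTRL.

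Across the 12 libraries, with the mean of each line removed, *REL* and *TNFAIP3* had the highest correlation of the 45 pairs of the 10 genes (Pearson *r* = 0.93), followed by *REL* and *TRAF1* (0.87), and *BIRC3* and *TRAF1* had the most negative (-0.84). These points share their arms and depth and are given as a description. The correlations were not repeated without replicate 2 of JVM2-2B17, which lay apart for *REL*, *RELA* and *BIRC3*. The gene most like each in this measure among all tested was *SETBP1* for *REL* (0.99), *PHF19* for *TNFAIP3* (0.98), *CCNG1* for *BIRC3* (0.98), *RNF213* for *TRAF1* (0.98) and *CNNM3* for *RELA* (0.98). It was *GPR146* for *NFKBIE* (0.97), *NDUFB2* for *NFKB1* (0.96), *SNRPA* for *NFKB2* (0.96), *ZDHHC24* for *RELB* (0.90) and *RRP1* for *NFKBIA* (0.87).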

How the data were processed

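RNA-seq libraries of the 12 samples, made after removal of ribosomal RNA, were run on the HiSeq2000 in paired-end mode. Sequencing took place at 2 sites, and which sample went to which site is not named. Per the labels and the methods of the study, the authors trimmed the reads with Trimmomatic, aligned them to hg38 with TopHat2 (version 2.0.14 in the submitters' processing notes) and counted them per Ensembl gene with HTSeq. For each line they deposited raw counts, without normalization. Whether counting used strand is not given in the sources used here. The tables also hold the authors' fold changes, *P*-values and 12 columns of normalized values per sample, none of which were used.

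Counts were fitted in R 4.3.3 with edgeR 4.0.16 (TMM, filterByExpr at its count limits of 10 per sample and 15 in total, quasi-likelihood F-test, two-sided), each line on its own and all 12 libraries together for the interaction and the lines. *P*-values were adjusted by Benjamini-Hochberg over all genes tested, and a gene is called changed below 0.05. Standard errors derive from the F statistic. CPM are TMM-scaled within a line unless all 12 libraries are named. Positions come from GENCODE 44 on GRCh38. The genes and the lists were chosen with earlier results of these data known. The 10 genes were all named, and of each list up to 3 genes per line and up to 2 between the CTRL groups with the largest change past the threshold, provided that their libraries did not overlap between groups and that their mean log2 CPM reached 1. The gene most correlated with each of the 10 was named as well. A gene that the rule names is not reported here. Scripts were tested on simulated data. Alternatives were DESeq2 1.42.0, edgeR's exact test, both tools together, RLE scaling, library sizes alone, no filter, at least 10 counts in every library, a replicate block, fits of fewer or more libraries, 25 neighbors on each side of *TRAF1*, and each replicate left out. Samples that share a replicate number did not deviate together in MEC1, and in JVM2 replicates 1 and 2 did so weakly.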

Additional observations from a re-analysis of the deposited data

Results flagged for a closer look

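Results are listed here because the change with UGT2B17 differed between MEC1 and JVM2 by the test of the interaction of line and arm (edgeR quasi-likelihood test, adjusted over all genes). Each value is the log2 fold change in MEC1 minus that in JVM2. Line and construct cannot be told apart in this test, since the arms of MEC1 also differ in vector and antibiotic. Among the 10 genes the difference was -0.58 for *NFKBIE*, -0.31 for *NFKB1*, 0.31 for *NFKB2*, -0.26 for *BIRC3* and -0.20 for *TNFAIP3*. The last 2 had adjusted *P* of 0.0352 and 0.0496 and were lost when most single libraries were left out.

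Among the named kinases and adaptors the difference was 0.59 for *MAP3K14*, -0.71 for *TRAF5* and 0.41 for *TRADD*. The IκB-like genes *NFKBIZ* and *NFKBID* differed by 1.34 and 0.72, and *RNF31* and *SHARPIN* of the linear ubiquitin complex by 0.47 and 0.29. Among the negative regulators the difference was -0.38 for *TRAF3IP3*, -0.27 for *COMMD1*, 0.55 for *ZC3H12A* and -1.54 for *PDLIM2*. Among the targets it was -0.93 for *TNFAIP2*, -0.93 for *CCND2*, 1.08 for *CCL22*, 1.20 for *CCL17*, 1.15 for *LTA* and -1.67 for *LTB*. *PDLIM2* and *CCL17* did not pass the filter within JVM2 alone, so their values rest on few counts in that line. *LTB* passed it but was low in JVM2-CTRL, so its value rests on few counts there as well.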

How the results depend on the processing

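Of the 31 calls among the 10 genes over the 5 comparisons, 23 kept their direction and their side of the threshold under every alternative, and the exceptions are given beside the results above. Of the 19 values that did not pass, 7 kept both, and the other 12 passed or changed sign under at least 1 alternative. The number of the 10 genes that changed was 6 to 8 in MEC1 and 3 to 5 in JVM2 over all alternatives, and the number that differed between the lines' responses was 3 to 5 when 1 library was left out. Correlations of the deviations of same-numbered replicates were small (-0.042, -0.0067 and 0.040 in MEC1 and 0.086, 0.12 and -0.0059 in JVM2). In JVM2 the crossed pairs of replicates 1 and 2 were at -0.12 and -0.086. Over all genes, a replicate block gave 6897 calls against 6909 without it in MEC1, and 4236 against 3821 in JVM2. A replicate block left 8 genes changed in MEC1 and gave 5 where 4 had changed in JVM2 (*NFKB2* being the fifth), with 5, 6 and 9 in the other 3 comparisons, and 46 and 30 of the further pathway genes. With 25 neighbors on each side the JVM2 value of *TRAF1* minus their median was -0.45. Values near 0 changed sign. The *RELB* difference between the lines was -0.00027 with DESeq2, -0.00035 with RLE scaling, -0.0013 without a filter, -0.00046 with at least 10 counts in every library, -0.059 in the 10 libraries and -0.055 to 0.094 with 1 library left out. In JVM2 *NFKBIA* was -0.052 to 0.0034 and *RELA* -0.27 to 0.036 with 1 library left out. Between the CTRL groups *NFKB1* and *NFKBIA* were 0.12 each with library sizes alone, and 0.028 and 0.026 with at least 10 counts in every library. The causes were not tested. The JVM2 libraries hold fewer counts and vary more, which limits what can be detected there.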
